A study of Mus musculus with 2 samples.

Results

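Pleiotrophin (Ptn), midkine (Mdk) and 3 of their receptors, Ptprz1, Sdc3 and nucleolin (Ncl), were followed in single cells of mouse femurs. These 5 genes were taken by their symbols out of 28006 features, and all 5 were measured in both libraries. Cxcl12-GFP+ cells came from 2 mice at postnatal day 28, after tamoxifen at day 21, with 1 library a mouse (Mouse #1 and Mouse #2). Both mice were of 1 genotype, with a GFP allele at Cxcl12 (Cxcl12(GFP/+)), Cxcl12-iCreER and R26R(tdTomato/+), so every comparison was between cells within mice. The creER is a bacterial artificial chromosome transgene, and tdTomato reports the cells in which it acted and their descendants. The labels did not agree on the sort: an extract field names tdTomato+ cells, and the cell type field names GFP+ cells.

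Pleiotrophin and midkine are the members of a small family of secreted, heparin-binding growth factors. They bind the sulfated sugar chains of proteoglycans and signal through cell surface receptors, and pleiotrophin from marrow stroma is known as a regulator of hematopoietic stem cells. Ptprz1 is a receptor tyrosine phosphatase that carries chondroitin sulfate, and the binding of pleiotrophin lowers its activity. Sdc3 is syndecan-3, a transmembrane heparan sulfate proteoglycan. Nucleolin is an abundant nucleolar protein of ribosome production that also binds these ligands at the cell surface.

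In the mouse genome (GRCm38/mm10, GENCODE models), Ptn lies on the minus strand at chr6:36714929-36810220 and Mdk on the minus strand at chr2:91929805-91932297. Ptprz1 lies on the plus strand at chr6:22875502-23052916 and Sdc3 on the plus strand at chr4:130792537-130826319. Ncl lies on the minus strand at chr1:86344719-86359400. The sequences upstream of Ptn, Sdc3 and Ptprz1 are shown because the log2 values of Ptn and of these receptors had opposite signs between reticular-like and preosteoblast-like cells. Each is 200 bases from RefSeq (GRCm38.p6), written along the gene's own strand, and ends 50 bases before the start of the gene. Capitals mark the GC box, GGGCGG on either strand.
Ptn, chr6:36810230-36810429, minus strand: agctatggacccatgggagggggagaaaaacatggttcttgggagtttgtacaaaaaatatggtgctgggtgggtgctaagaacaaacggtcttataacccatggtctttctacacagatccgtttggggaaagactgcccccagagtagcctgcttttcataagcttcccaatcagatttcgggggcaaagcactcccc
Sdc3, chr4:130792287-130792486, plus strand: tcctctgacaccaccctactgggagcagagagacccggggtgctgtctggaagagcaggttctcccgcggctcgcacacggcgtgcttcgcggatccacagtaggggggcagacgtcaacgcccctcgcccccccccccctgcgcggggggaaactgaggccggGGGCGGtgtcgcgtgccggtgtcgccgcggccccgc
Ptprz1, chr6:22875252-22875451, plus strand: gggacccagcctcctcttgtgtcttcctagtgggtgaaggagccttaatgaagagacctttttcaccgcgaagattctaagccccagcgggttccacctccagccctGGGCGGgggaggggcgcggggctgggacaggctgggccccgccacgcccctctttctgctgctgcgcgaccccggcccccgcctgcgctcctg
The window of Sdc3 held 1 GC box and that of Ptprz1 held 1, while that of Ptn held 0. Of 32851 promoter windows of this length, 24.6% held at least 1. The letters TATAAA, a core promoter element (9.14% of windows), TGTGGT, the RUNX motif (11.6%), and the EBF motif (0.612%) had 0 matches in all 3 windows, on either strand. The 50 bases next to the start were left out because the GENCODE model of Ptn begins within them, a choice made after the whole 250 bases had been searched. Over the whole 250 bases, Sdc3 held 3 GC boxes, Ptprz1 held 2 and Ptn held 0, against 32.7% of promoters with at least 1. TATAAA (12.4% of promoters), the RUNX motif (14.0%) and the EBF motif (0.779%) had 0 matches in the 250 bases of all 3 genes. Bases G and C made up 49% of the Ptn window, 73% of the Sdc3 window and 68% of the Ptprz1 window, with a median of 51.5% over all windows. A match is a description of letters, and 0 matches says only that these letters are not in this window.

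The libraries held 54940400 and 88790688 UMIs (molecular tags that count each captured transcript once). The filters left 2750 and 4582 cells, with median depths of 12966.5 and 12190 UMIs. The libraries shared 7 cell barcodes. Clustering without these genes gave 20 clusters. Of these, 4 were reticular-like (1268 and 2445 cells), raised in all 8 reticular markers, among them Adipoq, Lpl and Lepr. The preosteoblast-like cluster held 408 and 788 cells and was raised in 7 of 8 markers. The periosteal-like cluster (74 and 233 cells) was raised in 5 of 8 markers. Its summed level of the 8 preosteoblast markers, Col1a1 among them, was 14236 and 13830 CPM (counts per 1000000 UMIs), beside 14608 and 16100 in preosteoblast-like cells. The mature osteoblast-like cluster held 14 and 62. In spite of the sort for GFP, hematopoietic-like cells numbered 718 and 710. The study describes clusters of blood cells without detectable eGFP as well. A further 152 and 138 cells were endothelial-like, a type that the study counts among its Cxcl12-GFP+ cells. A cycling cluster (67 and 83 cells), which also had 7 of 8 preosteoblast markers raised, and a shallow cluster (49 and 123 cells) stayed unnamed.

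Ptn transcripts were most abundant in periosteal-like and reticular-like cells. Levels are in CPM, the UMIs of the gene over all UMIs of the class, with exact 95% Poisson intervals that cover counting error only. In periosteal-like cells Ptn stood at 837 (789 to 887) in Mouse #1 and 1284 (1247 to 1322) in Mouse #2. In reticular-like cells it stood at 492 (481 to 503) and 641 (632 to 650). These 2 classes did not overlap across mice, and both lay above every other class. Preosteoblast-like cells followed at 81.1 and 253, overlapping the cycling cluster at 131 and 302. Endothelial-like cells held 72.3 and 53.9, and hematopoietic-like cells 20.8 and 45.0. Ptn was higher in Mouse #2 than in Mouse #1 in reticular-like, preosteoblast-like and periosteal-like cells; with 1 library a mouse this difference has no test.

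**Figure D1:**
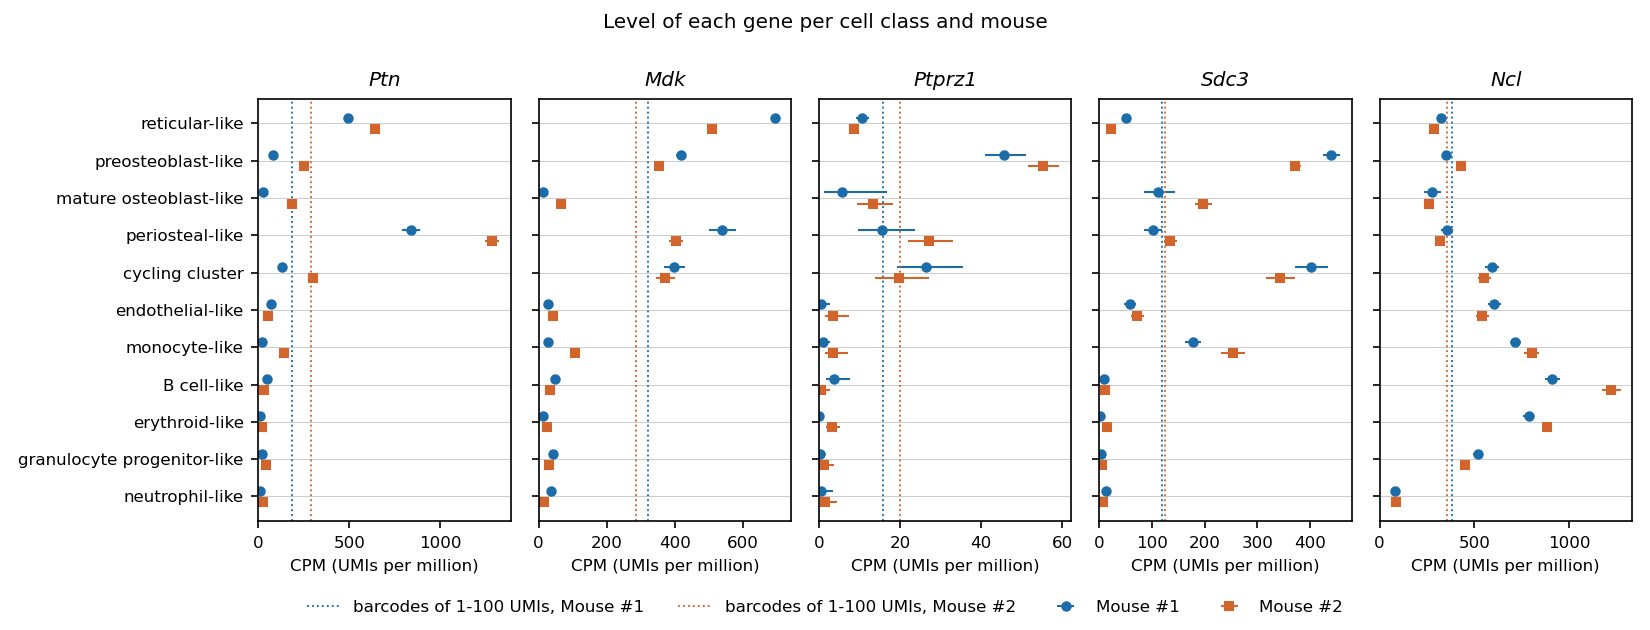
Level of each gene in CPM (linear axes from 0) in the cell classes, with circles for Mouse #1 and squares for Mouse #2. Bars are exact 95% Poisson intervals and dotted lines give barcodes of 1 to 100 UMIs. Ptn and Mdk peak in periosteal-like and reticular-like cells, Ptprz1 in preosteoblast-like cells, and Sdc3 in preosteoblast-like cells and the cycling cluster.

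Ptn varied widely from cell to cell within the reticular-like class. The median reticular-like cell held 3 UMIs in Mouse #1 and 4 in Mouse #2, while the 90th percentile was 17 and 20 and the highest cell held 102 and 99. The tenth of cells with the most Ptn carried 45.9% and 42.2% of its UMIs. For Mdk the same share was 27.2% and 29.4%. A Ptn UMI was found in 76.5% and 83.2% of reticular-like cells. After each cell was thinned to 2000 UMIs, this was 45.5% (95% Wilson interval 42.7 to 48.2%) and 53.3% (51.3 to 55.2%). In hematopoietic-like cells, which served as the background, the thinned share was 1.95% and 3.25%. Among barcodes of 1 to 100 UMIs, which hold mostly free RNA, Ptn stood at 182 and 291 CPM. That is above its level in preosteoblast-like cells of both mice, and the part of free RNA in those low levels was not tested. In the same barcodes Ptprz1 stood at 15.7 and 20.1 CPM and Sdc3 at 118 and 124, Mdk at 323 and 288 and Ncl at 380 and 354. The levels of Ptprz1 and Sdc3 were thus higher there than in reticular-like cells of both mice, and the part of free RNA in the comparisons of these receptors was not tested.

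Mdk was spread more evenly over the stroma than Ptn. Reticular-like cells held 694 (682 to 707) and 509 (501 to 517) CPM of Mdk. Periosteal-like cells held 539 and 403, and preosteoblast-like cells 419 and 355. Neighbors in this order overlapped between mice. Endothelial-like cells held 28.3 and 43.7 and hematopoietic-like cells 30.9 and 38.7, well apart from the stroma. Mature osteoblast-like cells were as low, at 13.4 and 65.4. In contrast to Ptn, Mdk was lower in Mouse #2 in reticular-like, preosteoblast-like and periosteal-like cells. Within the reticular-like class, cluster 14, led by Adipoq and Rbp4, had the highest Mdk, at 1061 and 971 CPM, from 43 cells in each mouse. Its median depth was only 3566.5 UMIs, and it is not the unnamed shallow cluster.

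The receptors Ptprz1 and Sdc3 were most abundant in preosteoblast-like cells. Ptprz1 reached 45.7 (40.9 to 51.0) and 55.4 (51.6 to 59.3) in preosteoblast-like cells, and 10.7 (9.15 to 12.4) and 8.68 (7.67 to 9.80) in reticular-like cells. These intervals did not overlap. Ptprz1 was sparse: at 2000 UMIs, 9.07% and 9.43% of preosteoblast-like cells had a UMI, against 2.45% and 2.01% of reticular-like and 0.418% and 0.141% of hematopoietic-like cells. Sdc3 stood at 441 (425 to 457) and 372 (362 to 382) in preosteoblast-like cells and at 50.3 (46.9 to 53.8) and 22.9 (21.2 to 24.7) in reticular-like cells. Across mice, its preosteoblast-like levels overlapped those of the cycling cluster, at 402 and 343. Ptprz1 was lower in the cycling cluster than in preosteoblast-like cells, at 26.4 and 19.8. A Sdc3 UMI was found in 56.6% and 49.9% of thinned preosteoblast-like cells and in 8.85% and 4.26% of thinned reticular-like cells. The thinned share in hematopoietic-like cells was 3.77% and 4.94%, so Sdc3 in reticular-like cells of Mouse #2 was at background by this measure. That background holds cells rich in Sdc3: outside the stroma, Sdc3 was highest in a small cluster led by C1qc and C1qa, complement genes of macrophages, at 1077 and 1305 CPM in 21 cells of each mouse.

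Ncl was present in every class, with the highest levels outside the stroma. B cell-like cells held 912 and 1223 CPM, erythroid-like cells 786 and 884 and monocyte-like cells 716 and 803. Reticular-like cells held 325 and 285, preosteoblast-like cells 351 and 429 and periosteal-like cells 355 and 317. Periosteal-like cells overlapped each of the other 2 classes across mice, while the values of reticular-like cells lay below those of preosteoblast-like cells. Neutrophil-like cells had the lowest level, 80.1 and 87.4.

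Reticular-like and preosteoblast-like cells were then compared in sums per mouse and class with the quasi-likelihood test of edgeR, in which 22.6% of 13559 genes passed an adjusted p of 0.05. The 5 genes were chosen with the tdTomato difference of Ptn in these libraries known, and whether levels across classes also played a part is not recorded, so the tests between classes may not be independent of the choice. Of the 5 genes, 2 passed, both lower in reticular-like cells. Sdc3 was lower by a log2 fold change of -3.44 ± 0.35 (SE; edgeR adjusted p = 6.1e-05), with -3.13 and -4.02 in the 2 mice. Ptprz1 was lower at -2.36 ± 0.30 (edgeR adjusted p = 0.00028), with -2.10 and -2.67. Ptn had a log2 fold change of 1.79 ± 0.65 (edgeR adjusted p = 0.070) and was above preosteoblast-like cells in 2 of 2 mice, by 2.60 and 1.34. With the mouse as a block, which the shared animals allow, the Ptn value was 1.98 ± 0.44 (edgeR adjusted p = 0.0067), in a fit where 25.7% of genes passed. Removing the filter on low counts or the other classes from the fit also took Ptn past the threshold. So did removing the 60 and 168 cells with the highest doublet scores, although the doublet call had not worked. Mdk (0.68 ± 0.36, edgeR adjusted p = 0.21) and Ncl (-0.31 ± 0.16, edgeR adjusted p = 0.19) did not pass with or without the block.

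Periosteal-like cells differed from reticular-like cells in the same receptors. In this comparison 19.0% of genes passed (20.2% with the block), and 2 of the 5 genes did, with and without the block. Sdc3 was lower in reticular-like cells at -1.78 ± 0.34 (edgeR adjusted p = 0.0038), with -1.01 and -2.56 by mouse. Ptprz1 was lower at -1.30 ± 0.35 (edgeR adjusted p = 0.023), with -0.55 and -1.64 by mouse; under DESeq2 it did not pass (adjusted p = 0.053). Ptn had a value of -0.97 ± 0.63 (edgeR adjusted p = 0.33). Mdk at 0.29 ± 0.36 (edgeR adjusted p = 0.64) and Ncl at -0.20 ± 0.16 (edgeR adjusted p = 0.43) did not pass either.

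Endothelial-like cells set the ligands apart. In this comparison 45.3% of genes passed (46.3% with the block), and 4 of the 5 genes did, with and without the block. Ptn was higher in reticular-like cells at 3.24 ± 0.71 (edgeR adjusted p = 0.0031) and Mdk at 4.13 ± 0.43 (edgeR adjusted p = 1.3e-05). Ptprz1 was higher at 2.30 ± 0.63 (edgeR adjusted p = 0.011), although endothelial-like cells gave only 1 and 7 Ptprz1 UMIs and the values by mouse were 4.40 and 1.27. Removing the highest doublet scores moved this value to 4.07, and the mean endothelial-like level of Ptprz1 from 2.05 to 0.574 CPM. Ncl was lower at -0.84 ± 0.16 (edgeR adjusted p = 0.0012). Sdc3 did not pass, at -0.77 ± 0.35 (edgeR adjusted p = 0.092), with -0.20 and -1.66 by mouse.

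Other genes of the pathway were taken from 3 lists of 48 genes: further receptors and co-receptors, enzymes that build or trim heparan and chondroitin sulfate, and substrates or partners of Ptprz1. Of these, 45 were tested and 16 passed between reticular-like and preosteoblast-like cells, 7 higher and 9 lower, against 10.7% and 11.9% of all genes. With the mouse as a block, 9 were higher and 9 lower; the added calls were Sdc1 (edgeR adjusted p = 0.014 with and 0.061 without the block) and Csgalnact1 (edgeR adjusted p = 0.039 and 0.054). The median log2 fold change was 0.02 for the lists and -0.04 for all genes. Alk, a receptor tyrosine kinase proposed for both ligands, had 0 UMIs in 7332 cells, which allows a share of up to 0.0409% of cells with a UMI.

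Among the receptors and co-receptors, 2 of 11 tested were higher and 3 lower in reticular-like cells, beside 10.7% and 11.9% of all genes. Nrp1, neuropilin-1, a co-receptor of semaphorins and VEGF, stood at 710 and 697 CPM in reticular-like cells and 248 and 217 in preosteoblast-like cells (1.64 ± 0.25, edgeR adjusted p = 0.00079). The laminin-binding integrin chain Itga6 was higher by 0.54 ± 0.16 (edgeR adjusted p = 0.032). Itgb3, a chain of the vitronectin receptor, was lower at -1.92 ± 0.46 (edgeR adjusted p = 0.011), with 6.93 and 7.20 against 43.2 and 14.1 CPM. Syndecan-2 (Sdc2) was lower at -0.66 ± 0.15 (edgeR adjusted p = 0.0097). Itga4 was lower at -2.42 ± 0.45 (edgeR adjusted p = 0.0031), from at most 1.19 CPM in either class.

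The enzymes of heparan and chondroitin sulfate split in direction, with 4 of 25 higher and 4 lower, beside 10.7% and 11.9% of all genes. Sulf1 and Sulf2 both remove 6-O-sulfates from heparan sulfate outside the cell, and they took opposite sides. Sulf1 stood at 125 and 168 CPM in reticular-like cells and 53.9 and 54.7 in preosteoblast-like cells (1.48 ± 0.25, edgeR adjusted p = 0.0018). Sulf2 stood at 2.41 and 2.99 against 37.3 and 44.2 (-3.85 ± 0.31, edgeR adjusted p = 1.5e-05). Chst15, which makes the disulfated chondroitin sulfate E unit, was higher by 1.46 ± 0.18 (edgeR adjusted p = 0.00021). Glce, the epimerase of heparan sulfate, was higher by 0.58 ± 0.16 (edgeR adjusted p = 0.025). The 2-O-sulfotransferase Ust was lower at -1.34 ± 0.24 (edgeR adjusted p = 0.0021). The 3-O-sulfotransferase Hs3st1 was lower at -4.23 ± 0.67 (edgeR adjusted p = 0.0011), from at most 5.37 CPM.

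Of 9 substrates and partners of Ptprz1, 1 was higher and 2 were lower, beside 10.7% and 11.9% of all genes. The Src-family kinase Fyn stood at 3.98 and 5.13 CPM in reticular-like cells and 31.4 and 43.9 in preosteoblast-like cells (-2.99 ± 0.19, edgeR adjusted p = 5.0e-06). Ctnnb1, beta-catenin, was lower at -0.93 ± 0.13 (edgeR adjusted p = 0.00053). The focal adhesion protein Pxn was higher by 0.47 ± 0.13 (edgeR adjusted p = 0.024). Against periosteal-like cells, 4 list genes were higher and 14 lower, beside 8.27% and 10.8% of all genes. Against endothelial-like cells, 17 were higher and 14 lower, beside 22.1% and 23.3% of all genes.

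**Figure D2:**
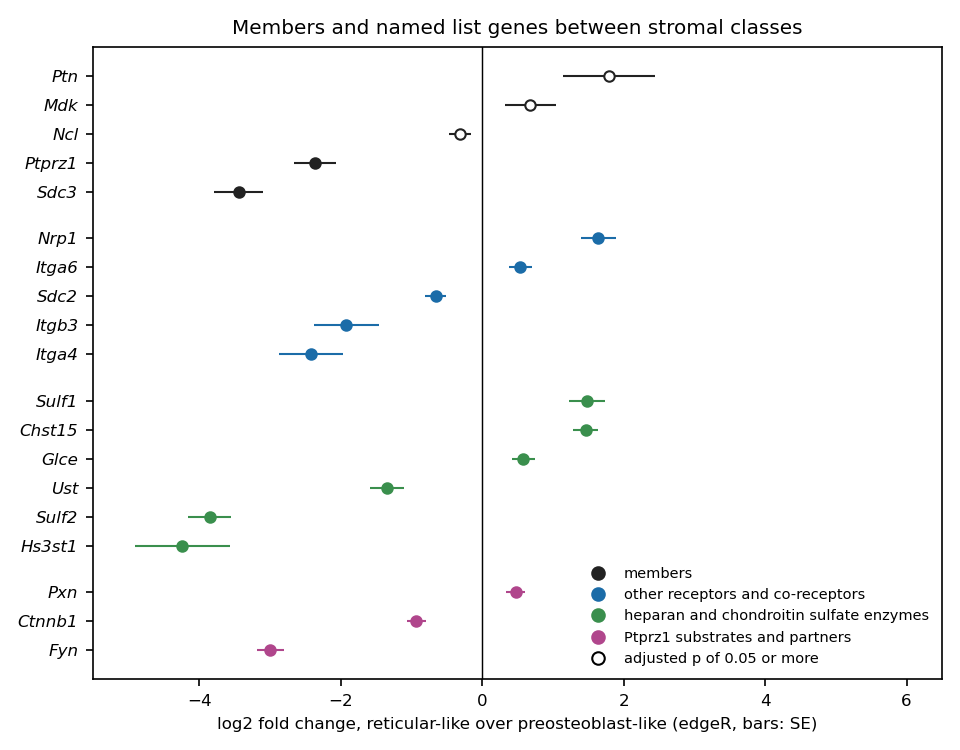
Log2 fold change of reticular-like over preosteoblast-like cells (horizontal axis) for the 5 genes and the named list genes, with bars for the SE of the edgeR fit without a block. Filled points passed an adjusted p of 0.05 and open points did not. Ptn, Mdk and Ncl are open; Sdc3, Fyn, Sulf2 and Hs3st1 lie farthest to the left.

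The genes whose levels ran most like those of Ptn were found over the 17 clusters with at least 20 cells in each mouse. Among 6394 genes, Fstl1, Ndn, Fkbp9, C1rb, Serping1, Ift43, Gas6 and C1s1 had the highest Pearson correlation of log2(CPM + 1), taking the lower of the 2 mice. This correlation was 0.916 for Fstl1 and 0.901 for C1s1. It was 0.856 for Mdk, 0.723 for Ptprz1, 0.196 for Sdc3 and -0.321 for Ncl. The clusters include hematopoietic-like and endothelial-like ones, so the values also cover the difference between the stroma and other cells. Between reticular-like and preosteoblast-like cells, Ptprz1 and Ptn went opposite ways. Clusters of 1 mouse share a library, so these values are a description.

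Within reticular-like cells, the 5 genes were last described by tdTomato. A cell was called tdTomato-positive when its tdTomato UMIs per 10000 passed the 99th percentile of hematopoietic-like cells of its mouse, 8.68 in Mouse #1 and 14.6 in Mouse #2. This gave 498 of 1268 cells (39.3%) and 982 of 2445 (40.2%), with 52 and 309 cells near the threshold. Depth was alike, with median UMIs of 12380 and 12347.5 in positive and negative cells of Mouse #1 and 11669.5 and 11471 in those of Mouse #2. The set was chosen by the level of Ptn in tdTomato-positive over tdTomato-negative cells of these same libraries, so the values of this contrast carry no test.

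Ptn stood at 666 CPM in positive and 377 in negative cells of Mouse #1, and at 809 and 528 in those of Mouse #2. Its mean log2 ratio was 0.72 ± 0.15 (SD, n = 2). Ptn was higher in positive cells in all 8 pairs of cluster and mouse, by 0.42 to 3.18. The highest value came from cluster 14 of Mouse #1, with 14 positive cells and 154 against 30 UMIs, and in the 3 larger clusters the range was 0.42 to 1.13. Mdk stood at 772 and 643 in Mouse #1 and 567 and 470 in Mouse #2, a ratio of 0.27 ± 0.0046 (SD, n = 2), and was higher in 6 of 8 pairs. Sdc3 was lower in positive cells, at 37.2 against 59.0 in Mouse #1 and 16.3 against 27.3 in Mouse #2, with a ratio of -0.70 ± 0.054 (SD, n = 2). It was lower in all 6 pairs with a value. The ratio was -0.24 ± 0.18 (SD, n = 2) for Ptprz1 and -0.02 ± 0.086 (SD, n = 2) for Ncl.

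**Figure D3:**
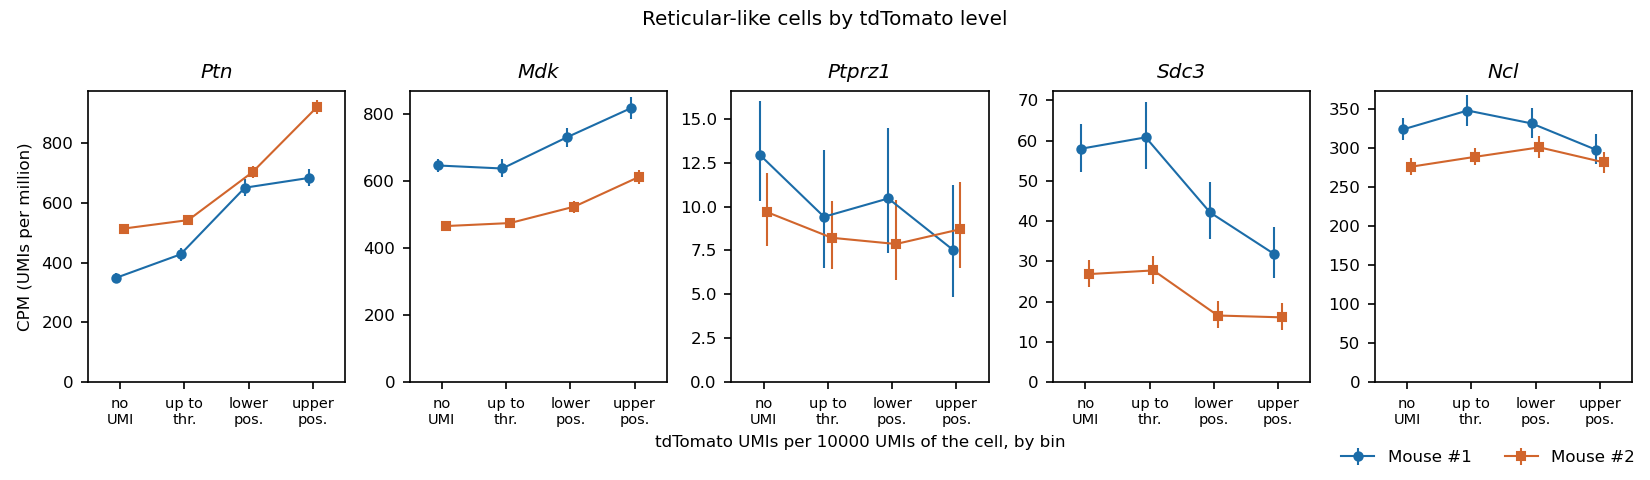
Level of each gene (CPM, axes from 0) in reticular-like cells without a tdTomato UMI, with UMIs up to the threshold, and in the lower and upper parts of the positive cells, per mouse, with exact 95% Poisson intervals. Ptn rises from 349 to 683 in Mouse #1 and from 514 to 920 in Mouse #2, while Sdc3 falls from 58.0 to 31.8 and from 26.8 to 16.1.

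Across the 4 bins of tdTomato, Mdk went from 646 to 817 CPM in Mouse #1 and from 465 to 612 in Mouse #2. Ptprz1 rested on 24 to 88 UMIs a bin, and its intervals overlapped throughout. Markers of other cells differed by tdTomato as well. The summed level of 5 erythroid markers was 182 CPM in positive and 738 in negative cells of Mouse #1, and 143 and 1566 in Mouse #2. Of 8 preosteoblast markers, 7 were lower in positive cells of each mouse, with sums of 2359 against 2491 and 3394 against 3646. Of 8 reticular markers, 1 was lower, with sums of 17903 against 16638 and 15608 against 14588. The summed level of 8 neutrophil markers was 214 against 271 in Mouse #1 and 323 against 165 in Mouse #2, with opposite directions in the mice. The sums of periosteal, endothelial and B cell markers were at most 22.2 CPM in positive or negative cells of either mouse. Their part in the differences of Ptn and Sdc3 was not tested.

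**Figure D4:**
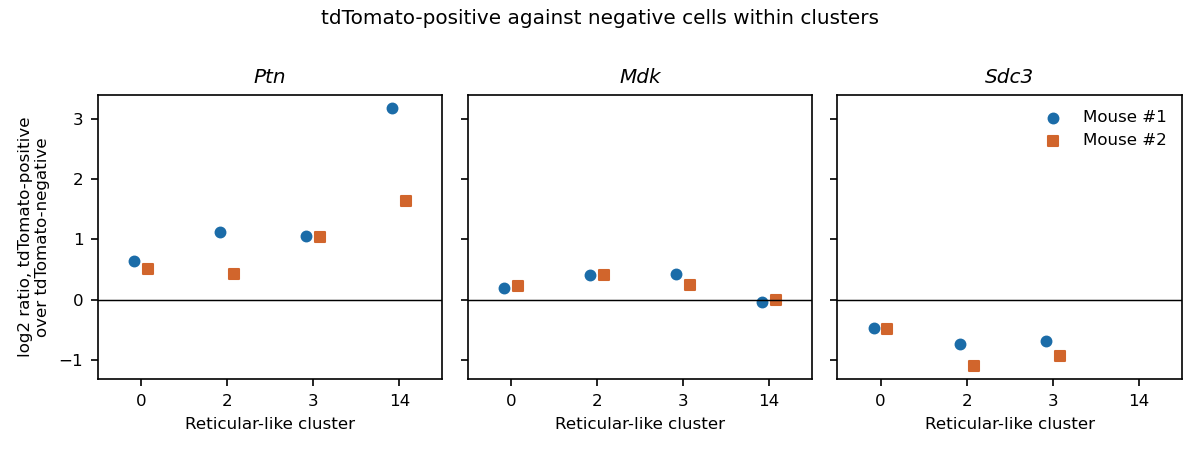
Log2 ratio of tdTomato-positive over tdTomato-negative cells (vertical axis) for Ptn, Mdk and Sdc3 in the 4 reticular-like clusters (horizontal axis, cluster numbers), with 1 point a mouse. All Ptn points lie above 0 and all Sdc3 points below; Sdc3 has no point in cluster 14, where positive cells held 1 UMI in each mouse.

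The lists were tested in the same contrast. Without a block for mouse, edgeR called 0.0% of 12241 genes and 0 of 41 list genes, with 492 genes at an unadjusted p under 0.05, while DESeq2 called 11 of 14003. With the mouse as a block, edgeR called 5.65% of genes, 3.0% higher and 2.66% lower in tdTomato-positive cells. It called 7 list genes, of which 3 were higher and 4 lower. Sdc4, syndecan-4, was higher by 0.31 ± 0.054 (blocked edgeR adjusted p = 2.0e-06) and the heparan sulfate polymerase Ext2 by 0.20 ± 0.058 (blocked edgeR adjusted p = 0.013). Sdc2 was lower at -0.28 ± 0.055 (blocked edgeR adjusted p = 1.9e-05) and the vitronectin receptor chain Itgav at -0.31 ± 0.057 (blocked edgeR adjusted p = 8.9e-06). Itgb3 was lower at -0.88 ± 0.20 (blocked edgeR adjusted p = 0.00075) and Fyn at -0.85 ± 0.25 (blocked edgeR adjusted p = 0.019). The Itgb3 level was low, at 6.05 CPM in positive and 7.51 in negative cells of Mouse #1. In Mouse #2 it was 3.77 and 9.50, so the difference was much larger there.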

How the data were processed

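Single-cell RNA was measured on the 10x platform in Cxcl12-GFP+ cells of 2 mice. The authors deposited raw UMI counts per feature and barcode, made with Cell Ranger 3.0.0 per the file headers; the submitters' processing notes name mm10. Per the study's methods, a barcode counted as a cell from 1000 genes upward, with a mitochondrial share of 15% or less. Cells were clustered with scanpy 1.11.5 (2000 variable genes, 30 components, 15 neighbors, Leiden resolution 0.5), leaving out 61 features: the 5 genes, the 48 list genes and 8 reporter features. Classes were named from marker lists, and these rebuilt names can differ from the study's. Scrublet marked 2 and 3 cells and had not worked, so doublets were kept. Sums per mouse and class were tested with edgeR 4.0.16 in R 4.3.3 (TMM, filterByExpr, Benjamini-Hochberg over all tested genes), tested on simulated data, with DESeq2 1.42.0 as an alternative. CPM values carry no TMM scaling. The SE is the size of the log2 fold change over the square root of F. The genes named are the 5 genes, the 8 most like Ptn, and from each list the called genes with up to 3 largest changes each way; in the tdTomato contrast, 6 of the 7 called, by lowest adjusted p. Pairing comes from the animals, since both sums of a pair are from 1 mouse; deviations of the same mouse correlated at 0.330, 0.214 and 0.147 for the class contrasts and 0.581 for tdTomato. The genes, lists and motifs were chosen with earlier results of these data known. The p-values rest on 2 mice, with a spread that is shared across genes and, in the class fit, across classes. With the block, the difference between the mice is taken out, so the blocked p-values do not measure it. Both tdTomato sums of a mouse are cells of 1 library. The alternatives were the block, DESeq2, no filter on low counts, a fit of 2 classes, stricter cells, a finer clustering, removal of the highest doublet scores, leaving out each mouse and other tdTomato thresholds. The study's own test over cells was not used, because cells are not replicates.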

Additional observations from a re-analysis of the deposited data

How the results depend on the processing

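Log2 values of the 5 genes kept their direction under the alternatives except 2 tdTomato ratios: Ptprz1 was 0.26 after thinning to 2000 UMIs, and Ncl, near 0, turned positive with any UMI, under strict cell limits and without Mouse #1. Between reticular-like and preosteoblast-like cells, 4 of the 5 genes passed with no filter on low counts and in the fit of only the 2 classes, against 2. In the class comparisons, the share of all genes passing is given only for the edgeR fits without and with the block. Counts of the 5 genes under the other alternatives have no such share beside them, so they are not read as a result about these genes. The log2 fold change of Ptn passed at 1.98 with the replicate block, 1.79 with no filter, 1.81 in the 2-class fit and 1.96 without the highest doublet scores. That of Mdk passed at 0.68 with no filter and 0.70 in the 2-class fit. Against periosteal-like cells, Ptn passed at -0.94 with no filter and -0.99 in the 2-class fit, while DESeq2 left 1 gene, with Ptprz1 at -1.28. Against endothelial-like cells, Sdc3 passed at -0.76 with no filter. The cause of these changes was not tested. The replicate block also moved the list genes called by tdTomato from 0 to 3 higher and 4 lower, and changed no other call of the 5 genes. Leaving out either mouse gave single values with no test: for Mdk 0.52 to 0.73 against preosteoblast-like and 0.34 to 0.36 against periosteal-like cells, for Ptn -1.003 to -0.77 against periosteal-like cells, and for Ncl -0.59 to -0.11 against preosteoblast-like, -0.15 to -0.13 against periosteal-like and -0.92 to -0.90 against endothelial-like cells. Against endothelial-like cells the ranges were -1.66 to -0.20 for Sdc3, 1.27 to 4.40 for Ptprz1, 2.77 to 3.57 for Ptn and 3.54 to 4.62 for Mdk. For the tdTomato ratios, 1 alternative took every non-hematopoietic cell with an Adipoq and a Lpl UMI, in place of the reticular-like class. It gave 1.10 for Ptn, 0.35 for Mdk, -0.79 for Ptprz1, -2.03 for Sdc3 and -0.12 for Ncl. Its negative cells numbered 986 and 1908, against 770 and 1463, and held 164 and 124 CPM of Sdc3, against 59.0 and 27.3. These ratios thus include cells outside the reticular-like class. Within reticular-like cells, the tdTomato ratio of Mdk was 0.23 at the 95th percentile, 0.17 for any UMI and 0.31 after thinning. It was 0.27 when matched on cluster and depth, and 0.23 without the highest doublet scores. Sdc3 was -0.35 for any UMI and -0.65 without those scores. The tdTomato threshold was set again after those cells were removed, which left 526 and 1161 positive cells, against 498 and 982. The motif window is an alternative chosen after seeing the data. Precision is limited by the number of mice, and for Ptprz1 also by its low counts.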
